A study of Mus musculus with 32 samples.

Results

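Bone marrow-derived dendritic cells that lack 2 of the 3 inducible catalytic subunits of the proteasome were compared with wild-type cells after 6 h of lipopolysaccharide (LPS), a molecule of the outer membrane of Gram-negative bacteria that triggers their maturation. The comparison uses the 8 libraries whose titles give 6 h of LPS, 4 labelled WT and 4 labelled dKO, of 32 libraries in the series, which holds both genotypes at 0, 1, 2 and 6 h. The question is how the loss of these subunits changes the transcripts of maturing dendritic cells. WT cells are labelled with no engineered allele, and dKO cells have the genotype Lmp7-/-Mecl1-/-. Lmp7 is the gene Psmb8 and Mecl1 is Psmb10. Both genotypes are labelled C57BL/6, and the labels give no age or sex. Both were grown from femur and tibia marrow in GM-CSF, a growth factor that drives myeloid progenitors towards dendritic cells and macrophages, and both were harvested at day 9. By the labels, the groups share the culture, the LPS dose of 1 µg/mL and the 6 h time and differ by genotype. The labels name no Cre driver or cell type for the deletions and no WT control that shares the litter of the dKO mice. They also do not say whether the 4 replicates of a group came from separate mice or separate cultures, so p-values describe variation among these libraries only, and that variation may be technical. RPKM is the number of reads per kilobase of transcript, scaled to the mapped reads of the library. Of 22216 genes in the tables, 9589 reached 1 RPKM in 4 or more of these libraries and entered the tests.

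The proteasome degrades ubiquitin-tagged proteins, and its core particle cuts them at 3 kinds of catalytic site. In dendritic cells and in cells exposed to interferon, the inducible subunits LMP2, MECL1 and LMP7 replace the constitutive ones, which forms the immunoproteasome and alters the peptides supplied to MHC class I. LPS is recognised by TLR4 with MD-2 and CD14. One branch runs through MyD88 to NF-kappaB and inflammatory cytokines, and the other induces interferon-beta, which acts back on the cell through its receptor to switch on interferon-stimulated genes. Maturing dendritic cells raise costimulatory molecules, CCR7 and fascin, shift their metabolism towards glycolysis and lower antigen uptake.

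The 8 libraries had between 1.31 and 1.68 Gb of bases aligned to genes by the deposited tables, 1.31 to 1.66 in dKO and 1.48 to 1.68 in WT. Between 9188 and 9381 genes reached 1 RPKM in the dKO libraries and 9581 to 9623 in the WT libraries, and spike-in RNA took 0.0943% to 0.118% of bases in dKO against 0.133% to 0.229% in WT. Neither measure overlapped between the genotypes, and the part of such library differences in the calls was not tested. One library stood apart. Across the 9589 genes, 7 of the 8 libraries correlated best with the mean of the WT 6 h libraries (own library left out), at r = 0.994 to 0.996 for WT and 0.968 to 0.971 for dKO replicates 1 to 3. The library labelled dKO 6 h replicate 4 correlated best with WT at 2 h, at r = 0.973, against 0.923 with WT at 1 h and 0.892 with WT at 6 h. Over the 1000 genes most variable across the 16 WT libraries, its r was 0.971 with WT at 2 h and 0.801 with WT at 6 h. These correlations are across genes, which are not independent replicates. Whether that library was given LPS for another time was not tested, so counts over all genes and over lists are given with all 8 libraries and without it. A gene's own value without it is given where leaving it out makes or ends a call, or moves a called difference by over 1.5-fold. The dendritic cell genes Itgax, Cd74 and H2-Aa were all abundant, at 196 to 215, 7558 to 8789 and 3576 to 4196 RPKM in WT, whereas the B cell, erythroid and stromal lists had no member that passed the filter.

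**Figure D1:**
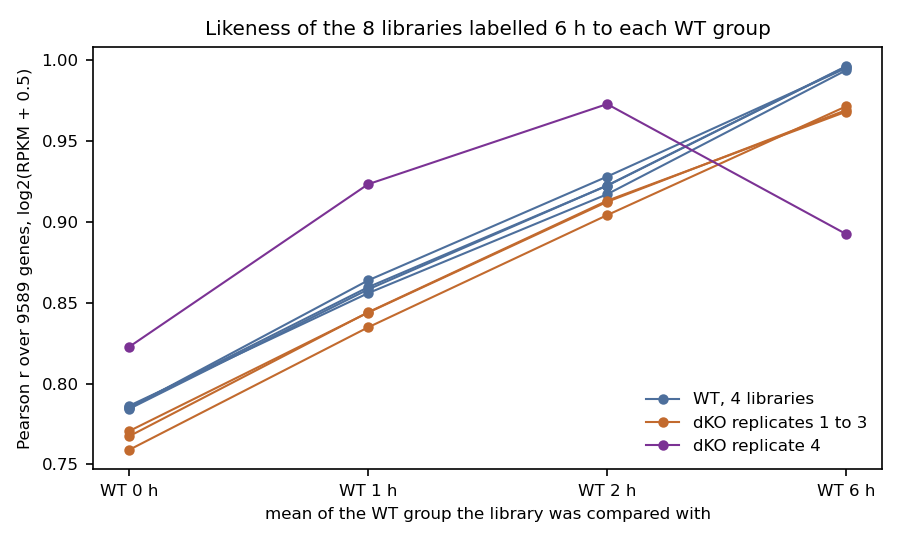
Pearson correlation of each library labelled 6 h (lines) with the mean of the WT libraries at 0, 1, 2 and 6 h (x axis), over 9589 genes on the log2(RPKM + 0.5) scale. The WT libraries and dKO replicates 1 to 3 climb to 0.968 or more at WT 6 h, and dKO replicate 4 peaks at WT 2 h (0.973) and falls to 0.892 at WT 6 h.

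Both targeted genes were nearly lost in all 4 dKO libraries. Psmb8, which encodes LMP7 (chromosome 17, 34335140 to 34338399, build mm9, positions as deposited), measured 304, 297, 302 and 312 RPKM in WT replicates 1 to 4 and 5.31, 5.64, 5.73 and 4.61 RPKM in dKO replicates 1 to 4. Psmb10, which encodes MECL1 (chromosome 8, 108459628 to 108462292), measured 117, 91.5, 112 and 131 RPKM in WT and 11.1, 17.1, 11.6 and 6.54 RPKM in dKO. The 4 dKO libraries lay below the 4 WT libraries for both genes, replicate 4 included, so the genotype labels and these transcripts go together in every library. The log2 difference, dKO minus WT on the log2(RPKM + 0.5) scale, was -5.71 ± 0.09 (SE) for Psmb8 and -3.29 ± 0.25 for Psmb10. The exact two-sided permutation test, with 70 arrangements of the labels, gave p = 0.0286 for each, the smallest p that 4 against 4 allows.

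Across the transcriptome, 518 of 9589 genes were called higher in dKO (5.4%) and 1256 lower (13.1%) at a limma adjusted p below 0.05. At least 2-fold changes made up 153 of the higher calls (1.6%) and 277 of the lower calls (2.89%). Without dKO replicate 4 the counts rose to 1334 higher (13.9%) and 2981 lower (31.1%), and all 518 higher and all 1256 lower genes of the 8-library fit were among them. None of them changed direction. In total that fit called 4315 genes (45%), of which 152 were at least 2-fold higher (1.59%) and 222 at least 2-fold lower (2.32%). With 8 libraries, all 4 dKO values lay above all WT values in 844 genes (8.8%) and below them in 2377 (24.8%). The calls of at least 2-fold with 8 libraries, 430 genes in total (4.48%), were thus all called in both fits. The 2 fits share 7 libraries, so the second is no independent filter. The deposited values put the median gene at a log2 difference of -0.16, and median-of-ratios scaling moved it to -0.01. The scaled counts were 732 higher (7.63%) and 666 lower (6.95%), so that higher genes made up 29.2% of the calls as deposited and 52.4% after scaling. Without replicate 4 the scaled counts were 1976 (20.6%) and 1853 (19.3%). Quantile normalization gave 778 higher and 781 lower. Leaving out WT replicate 1, 2, 3 or 4 alone gave 246, 331, 300 and 265 genes higher and 503, 713, 649 and 562 lower. In the lists below, counts are read against 5.4% and 13.1% of all genes with 8 libraries and against 13.9% and 31.1% without dKO replicate 4, and no list was tested as a set. Where leaving out another single library moved a list's count by over 1.5-fold, the counts follow with those libraries in brackets.

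**Figure D2:**
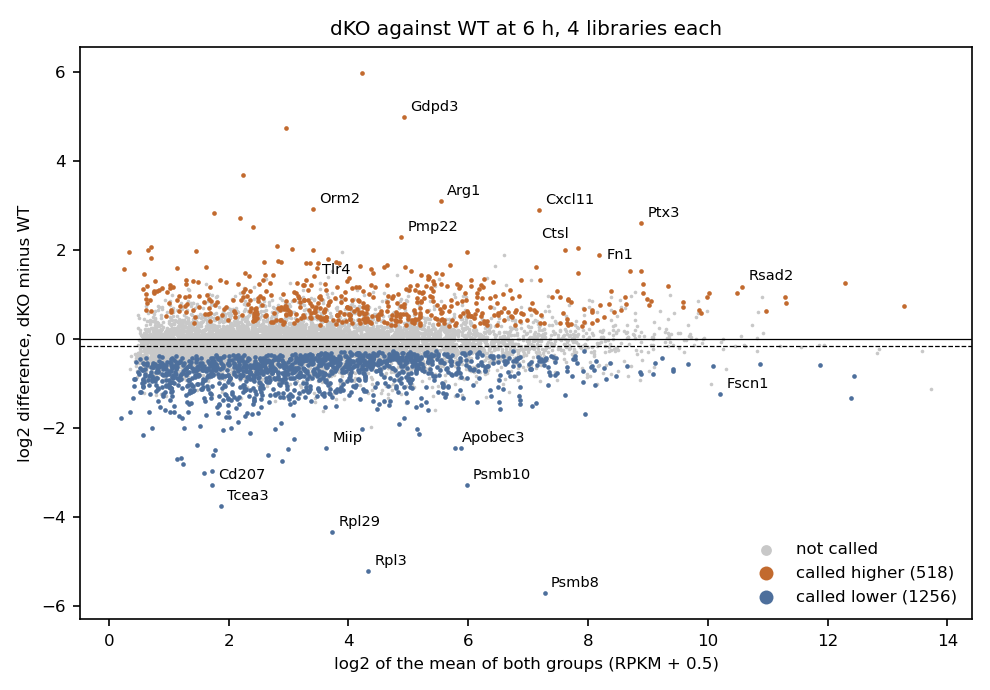
Log2 difference (dKO minus WT, y axis) against log2 of the mean level of both groups (x axis) for 9589 genes in the fit of 8 libraries. Called genes are coloured (518 higher, 1256 lower), the dashed line is the median difference of -0.16, and Psmb8 (-5.71), Rpl3 (-5.23) and Gdpd3 (4.99) lie farthest out among the labelled genes.

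The other catalytic subunits differed among themselves. Psmb5, the constitutive partner that LMP7 replaces, measured 42, 37.7, 38.1 and 45.4 RPKM in WT and 15.2, 19.9, 19.6 and 22.7 RPKM in dKO, and was lower in dKO (limma log2 difference -1.07 ± 0.13, adjusted p = 0.00183). No dKO library reached the lowest WT library. Psmb7, the partner that MECL1 replaces, was lower by less (78 to 83.4 RPKM in WT, 61.5 to 65.7 RPKM in dKO; -0.32 ± 0.07, adjusted p = 0.0182). Psmb6, the partner of LMP2, did not pass the test (130.5 to 144 RPKM in WT, 122 to 179 RPKM in dKO; 0.12 ± 0.12, adjusted p = 0.504). Psmb9, which encodes the third inducible subunit LMP2, stood at 302 to 359.9 RPKM in WT, 261 to 293 in dKO replicates 1 to 3 and 103 in replicate 4. It did not pass with 8 libraries (-0.61 ± 0.31, adjusted p = 0.193) and was lower without replicate 4 (-0.26 ± 0.08, adjusted p = 0.0199). Psmb7 was not called without WT replicate 1, 2, 3 or 4 (adjusted p = 0.0562 to 0.064). Median-of-ratios scaling left Psmb7 uncalled with 8 libraries and Psmb9 uncalled in both fits. Scaling without replicate 4 called Psmb6 higher (limma log2 difference 0.34, adjusted p = 0.0103) and Psmb7 lower (-0.18, adjusted p = 0.0222).

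Outside the catalytic sites the largest change among core subunits was in Psma6, an alpha ring subunit, at 408, 412, 395 and 421 RPKM in WT and 244, 218, 262 and 169.5 RPKM in dKO. All dKO values were under the WT range, and the difference was -0.89 ± 0.13, adjusted p = 0.004. Psmg4, a chaperone of core assembly, was also lower (27 to 32.7 RPKM in WT, 12.3 to 18.9 RPKM in dKO; -0.79 ± 0.15, adjusted p = 0.00904). Psme1, which encodes an alpha subunit of the interferon-inducible activator PA28, measured 324 to 365 RPKM in WT, 276 to 284 in dKO replicates 1 to 3 and 122 in replicate 4. Its call came only without replicate 4 (-0.58 ± 0.26, adjusted p = 0.144 with 8 libraries, -0.29 ± 0.06, adjusted p = 0.00436 without it). Of 23 genes of the regulatory particle, which unfolds substrates, 4 were called lower with 8 libraries, 14 without dKO replicate 4, and 0 after median-of-ratios scaling. None was called higher in these 3 fits, and scaling without replicate 4 gave 1 higher and 4 lower. With 1 other library left out, the lower count was 0 (WT replicate 1, 2, 3 or 4 or dKO replicate 1) or 1 (dKO replicate 2 or 3). Over all genes tested, 13.1% were called lower with 8 libraries and 31.1% without replicate 4.

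Among genes called in both fits whose groups did not overlap and whose higher group averaged at least 5 RPKM, the steepest rise in dKO belonged to Gdpd3 (chromosome 7, 133909928 to 133919159), which encodes a glycerophosphodiester phosphodiesterase domain protein. It measured 1.34, 1.38, 1.88 and 0.894 RPKM in WT replicates 1 to 4 and 51.3, 66.1, 60.4 and 56.1 RPKM in dKO replicates 1 to 4, and the fold between the means was 42.5 (log2 4.99 ± 0.17, adjusted p = 9.8e-07). Orm2, an acute-phase plasma protein with near-identical family members whose reads the counting could split, stood at 1.72 to 2.36 RPKM in WT, 16.2 to 19.8 RPKM in dKO (2.93 ± 0.12, adjusted p = 2.8e-06). Cxcl11, the CXCR3 ligand induced by interferon, measured 31.1, 33.7, 33.1 and 24 RPKM in WT and 365, 333, 251 and 91.1 RPKM in dKO. The groups were apart, as the rule required, and replicate 4 was the lowest of the dKO group (2.905 ± 0.40, adjusted p = 0.00272, and 3.35 ± 0.14, adjusted p = 1.3e-07 without it). Arg1, the arginase that competes with nitric oxide synthase for arginine, was the most variable of them, at 7.95, 8.72, 9.35 and 4.38 RPKM in WT and 79.997, 58, 24.1 and 175 RPKM in dKO (3.103 ± 0.53, adjusted p = 0.00646, and 2.64 ± 0.36, adjusted p = 0.000262 without replicate 4). The fold between its means was 11.1 with 8 libraries and 7.11 without replicate 4. Retnla, a marker of alternative activation, ranged over 0 to 1.18 RPKM in WT and 1.59 to 12.4 RPKM in dKO (2.73 ± 0.59, adjusted p = 0.0158). Retnla was not called without WT replicate 4 (adjusted p = 0.0511).

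Ptx3, a soluble pattern recognition molecule, was also among the 15 highest and measured 128, 115, 124 and 111 RPKM in WT and 555, 559.6, 565 and 1614 RPKM in dKO (2.61 ± 0.33, adjusted p = 0.00192). Replicate 4 stood far above the others, and the remaining 3 dKO libraries were close together. Ctsl, the lysosomal protease cathepsin L, measured 92.4, 110.2, 95.4 and 61.8 RPKM in WT and 399, 359.7, 337 and 373 RPKM in dKO, a 4.08-fold difference of means in which replicate 4 sat among the other dKO libraries (2.05 ± 0.17, adjusted p = 0.000302). Apoe, the lipid transport protein, (61.2 to 95.4 RPKM in WT, 235 to 518 RPKM in dKO; 1.99 ± 0.26, adjusted p = 0.00227), Pf4, a platelet-type chemokine also made by macrophages (18.3 to 30.2 RPKM in WT, 66.1 to 173 RPKM in dKO; 1.96 ± 0.30, adjusted p = 0.00405), and Fn1, fibronectin (106 to 128 RPKM in WT, 319 to 818 RPKM in dKO; 1.901 ± 0.27, adjusted p = 0.00326), were higher. Groups that do not overlap were a condition for entering the 15 highest, so that trait is no separate result. The water and glycerol channel Aqp3 (2.53 ± 0.26, adjusted p = 0.000769), the membrane proteins Pmp22 (2.298 ± 0.28, adjusted p = 0.00175) and Emp1 (2.03 ± 0.36, adjusted p = 0.00733), the neuropeptide precursor Nts (2.098 ± 0.28, adjusted p = 0.00244) and the heme-binding protein Hebp1 (2.01 ± 0.45, adjusted p = 0.0185) complete the 15 highest. Hebp1 stood at 2.47 to 3.78 RPKM in WT, 8.05 to 10.1 in dKO replicates 1 to 3 and 41 in replicate 4, and its difference without replicate 4 was 1.49 ± 0.13, adjusted p = 2.4e-05 (fold of means 5.72 with 8 libraries, 3.09 without it). Hebp1 was not called without WT replicate 1, 3 or 4 (adjusted p = 0.0505 to 0.0614).

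Under the same rule, which required groups that do not overlap, the steepest falls besides Psmb8 and Psmb10 were in genes that were almost silent in dKO. Rpl3, a large-subunit ribosomal protein, measured 39, 36.6, 39.8 and 39.4 RPKM in WT and 0.342, 0.66, 0.414 and 0.848 RPKM in dKO. Rpl29, another, measured 23.6, 24.3, 25.3 and 25.5 RPKM in WT and 0.478, 0.856, 1.06 and 0.672 RPKM in dKO. Both have many near-identical copies in the genome, and the handling of reads shared between copies is not given in the sources used here, so these values are uncertain. Tcea3, a transcription elongation factor (chromosome 4, 135803872 to 135830814), measured 5.31, 6.93, 7.47 and 5.62 RPKM in WT and was listed at 0 in all 4 dKO libraries. Cd207, which encodes langerin, a C-type lectin of Langerhans cells, measured 2.57, 6.59, 6.64 and 6.17 RPKM in WT and 0, 0.152, 0 and 0.201 RPKM in dKO (-3.29 ± 0.29, adjusted p = 0.00038). Uchl1, a deubiquitinase, measured 4.11, 4.79, 4.92 and 7.46 RPKM in WT and 0.101, 0.175, 0.0936 and 0.669 RPKM in dKO (-2.97 ± 0.26, adjusted p = 0.00038). Without replicate 4 the differences were -3.38 ± 0.27, adjusted p = 1.3e-05 for Cd207 and -3.19 ± 0.17, adjusted p = 9.0e-07 for Uchl1. No dKO library came near the WT range in Tcea3, Cd207 or Uchl1, and these genes and Rpl3 passed the filter through their WT libraries alone.

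Apobec3, a cytidine deaminase that restricts retroviruses, measured 88.9, 87, 90.8 and 92.8 RPKM in WT and 25, 23.2, 25.3 and 4.35 RPKM in dKO (-2.45 ± 0.50, adjusted p = 0.0128). Replicate 4 was the lowest dKO library, and the difference without it was -1.85 ± 0.06, adjusted p = 1.3e-08. Miip, an inhibitor of cell migration, (17.4 to 22.4 RPKM in WT, 2.8 to 4.77 RPKM in dKO; -2.46 ± 0.17, adjusted p = 1.0e-04), and Ndrg2, a differentiation-associated gene (11.8 to 15.2 RPKM in WT, 1.97 to 3.05 RPKM in dKO; -2.24 ± 0.16, adjusted p = 0.000147), were lower by similar amounts. The cystatin-like genes Stfa2 (-2.47 ± 0.28, adjusted p = 0.00128) and Stfa3 (-2.61 ± 0.26, adjusted p = 0.000667), which belong to a family of near-identical copies and are therefore uncertain, the granzyme B inhibitor relative Serpinb9b (-2.46 ± 0.52, adjusted p = 0.015) and the chemokine Ccl1 (-2.11 ± 0.33, adjusted p = 0.00468) were also among the 15 lowest. Stfa3 passed the filter through its WT libraries alone. Serpinb9b differed by -1.85 ± 0.15, adjusted p = 1.0e-05 without dKO replicate 4. Serpinb9b was not called without WT replicate 1 or 4 (adjusted p = 0.052 to 0.0534).

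The transcript of the LPS receptor gene Tlr4 was more abundant in dKO. Tlr4 measured 5.53, 5.36, 4.82 and 4.98 RPKM in WT and 12.7, 11.3, 13 and 24.1 RPKM in dKO, so that every dKO library had more than the highest WT library, and replicate 4 most (1.41 ± 0.22, adjusted p = 0.00425, and 1.18 ± 0.08, adjusted p = 5.8e-06 without replicate 4). Ly96, which encodes MD-2, measured 15 to 17.8 RPKM in WT, 11.4 to 18.1 RPKM in dKO and did not pass the test (-0.20 ± 0.14, adjusted p = 0.35). Cd14, the coreceptor that hands LPS to the complex, measured 180.0 to 259.8 RPKM in WT, 264 to 329 in dKO replicates 1 to 3 and 1113 in replicate 4 and was called without replicate 4 alone (0.89 ± 0.41, adjusted p = 0.16 with 8 libraries, 0.42 ± 0.13, adjusted p = 0.0226 without it). Tlr7, an endosomal receptor for single-stranded RNA, was higher (14.5 to 20.4 RPKM in WT, 29.2 to 34.5 RPKM in dKO; 0.83 ± 0.12, adjusted p = 0.00299). Of 29 LPS receptor and TLR signalling genes, 9 were called higher and 3 lower in dKO, and 17 and 3 without dKO replicate 4, with a median of 0.25 with all 8 libraries and 0.33 without dKO replicate 4. When another library was dropped, the higher count was 4 (WT replicate 1) or 5 (WT replicate 2 or 4) and the lower count was 0 (WT replicate 1, 2, 3 or 4) or 1 (dKO replicate 2). The counts were 9 higher and 1 lower after median-of-ratios scaling, 20 and 2 after scaling without dKO replicate 4, and 10 and 2 after quantile normalization.

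Downstream of the receptor, Map3k7, which encodes the kinase TAK1, was higher (5.56 to 6.67 RPKM in WT, 10.2 to 12.3 RPKM in dKO; 0.83 ± 0.10, adjusted p = 0.00184). So was Irak3, the inhibitory member of the IRAK kinases (13 to 16.3 RPKM in WT, 20.2 to 27.1 RPKM in dKO; 0.68 ± 0.12, adjusted p = 0.00745). Irak4, the kinase that starts MyD88 signalling, was lower (8.19 to 9.37 RPKM in WT, 4.28 to 6.52 RPKM in dKO; -0.58 ± 0.14, adjusted p = 0.0225). The adaptor Myd88 did not pass the test (85.1 to 103 RPKM in WT, 84.1 to 101 RPKM in dKO; 0.06 ± 0.10, adjusted p = 0.686). Irak4 was not called without WT replicate 1, 2, 3 or 4 (adjusted p = 0.0576 to 0.0752). Among NF-kappaB genes, Bcl3, a nuclear partner of the p50 and p52 subunits, measured 65.4, 60.4, 68.1 and 69.8 RPKM in WT and 36.4, 36.9, 38.5 and 40.9 RPKM in dKO with no overlap between groups (-0.78 ± 0.08, adjusted p = 0.00109). Relb, the subunit of the non-canonical pathway, was lower (103 to 133 RPKM in WT, 66.7 to 93.5 RPKM in dKO; -0.49 ± 0.13, adjusted p = 0.0306). Rela (0.23 ± 0.11, adjusted p = 0.17) and Nfkb1 (0.10 ± 0.15, adjusted p = 0.674) did not pass. Of 15 NF-kappaB genes, 0 were called higher and 4 lower in dKO, and 0 and 10 without dKO replicate 4. For other single libraries left out, the lower count was 1 (WT replicate 1, 3 or 4 or dKO replicate 1 or 2) or 2 (WT replicate 2). The counts were 0 higher and 2 lower after median-of-ratios scaling, 2 and 5 after scaling without dKO replicate 4, and 0 and 4 after quantile normalization. Relb was not called without WT replicate 1, 3 or 4 or dKO replicate 1 or 2 (adjusted p = 0.0557 to 0.0916), and it was not called after median-of-ratios scaling.

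Dusp1 and Dusp2, feedback phosphatases of the MAP kinases, were lower. Dusp1 measured 68.6, 67.7, 70.4 and 69.3 RPKM in WT and 32.6, 26.3, 35.7 and 22.6 RPKM in dKO (-1.24 ± 0.14, adjusted p = 0.00128). Dusp2 measured 20.1, 22.5, 24.9 and 24.2 RPKM in WT and 9.52, 10.3, 9.96 and 14.7 RPKM in dKO (-1.03 ± 0.15, adjusted p = 0.00318). Neither gene had a dKO library within the WT range, and leaving out replicate 4 left the differences at -1.13 and -1.17. Atf3, a repressor of inflammatory genes, went the other way (179.7 to 196 RPKM in WT, 244 to 375 RPKM in dKO; 0.69 ± 0.13, adjusted p = 0.00998). The deubiquitinase A20, encoded by Tnfaip3, was not called in either fit (169 to 203 RPKM in WT, 190.2 to 203 in dKO replicates 1 to 3 and 417 in replicate 4; 0.32 ± 0.24, adjusted p = 0.366). Nfkbia, the NF-kappaB inhibitor, was called lower without replicate 4 (-0.12 ± 0.09, adjusted p = 0.356 with 8 libraries, -0.18 ± 0.06, adjusted p = 0.0397 without it).

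Cytokine transcripts were called in both directions. Inhba, which encodes the activin A subunit, measured 282, 361, 291 and 224 RPKM in WT and 622, 656, 592 and 840.3 RPKM in dKO (1.23 ± 0.16, adjusted p = 0.00245). Il6, the acute-phase cytokine, measured 754, 853, 744 and 666 RPKM in WT and 1014, 966, 1113 and 1467 RPKM in dKO (0.58 ± 0.15, adjusted p = 0.0286), with every dKO library above WT for both. Ebi3, the subunit shared by IL-27 and IL-35, was lower (354 to 375 RPKM in WT, 97.3 to 226 RPKM in dKO; -1.02 ± 0.25, adjusted p = 0.0268). Vegfa, the angiogenic factor, was higher (16.7 to 28.7 RPKM in WT, 29.9 to 86 RPKM in dKO; 1.49 ± 0.33, adjusted p = 0.0166). Il12b, which encodes the p40 chain of IL-12 and IL-23, measured 2912 to 3275 RPKM in WT, 1989 to 3836 RPKM in dKO and did not pass (-0.17 ± 0.18, adjusted p = 0.54). Il23a, the p19 chain, measured 61 to 85.2 RPKM in WT, 34.4 to 44.3 in dKO replicates 1 to 3 and 87.4 in replicate 4 and was called lower only without replicate 4 (-0.90 ± 0.12, adjusted p = 0.000222). Tnf, the first cytokine released after LPS, measured 489 to 677 RPKM in WT, 691 to 824 in dKO replicates 1 to 3 and 2830.0 in replicate 4 with a WT mean of 3380.5 RPKM at 2 h. It was called higher without replicate 4 (0.37 ± 0.11, adjusted p = 0.0165) and not with it (0.86 ± 0.42, adjusted p = 0.179). Il1b did not pass in either fit (0.13 ± 0.27, adjusted p = 0.761). Of 26 inflammatory cytokine genes, 5 were called higher and 1 lower in dKO, and 9 and 6 without dKO replicate 4. As other libraries were left out, the higher count was 1 (WT replicate 1 or 4), 2 (WT replicate 3) or 3 (dKO replicate 1 or 3) and the lower count was 0 (WT replicate 1, 2, 3 or 4) or 2 (dKO replicate 3). Il6 was not called without WT replicate 1, 3 or 4 or dKO replicate 3 (adjusted p = 0.0509 to 0.0901). Ebi3 was not called without WT replicate 1, 2, 3 or 4 (adjusted p = 0.0643 to 0.077). Vegfa was not called without WT replicate 1 or 4 (adjusted p = 0.0582 to 0.0587).

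Among chemokines, the CXCR3 ligands Cxcl10 and Cxcl11 were higher and Ccl17 was lower. Cxcl10, a CXCR3 ligand like Cxcl11, measured 1703, 1866, 1664 and 1533 RPKM in WT and 2986, 3321, 2654 and 4362 RPKM in dKO, higher in each dKO library than in any WT library (0.96 ± 0.16, adjusted p = 0.00574). Ccl17, a CCR4 ligand that is a product of mature dendritic cells, measured 7791, 6028, 6364 and 8357 RPKM in WT and 3909.7, 4142, 3677 and 4103 RPKM in dKO. Replicate 4 lay with the other dKO libraries, and the groups did not overlap (-0.84 ± 0.13, adjusted p = 0.00472). Ccl22, the second CCR4 ligand, measured 18957, 16210.0, 17020.0 and 20205 RPKM in WT and 11104, 10592, 11368 and 3494 RPKM in dKO. All 4 dKO values were below WT, but replicate 4 widened the spread, and the call came only without it (-1.12 ± 0.36, adjusted p = 0.0616 with 8 libraries, -0.71 ± 0.10, adjusted p = 0.000361 without it). Ccl5, a chemokine that attracts T cells, measured 11985 to 13281 RPKM in WT, 14129 to 14575 in dKO replicates 1 to 3 and 4204 in replicate 4 and was not called in either fit (-0.28 ± 0.38, adjusted p = 0.628; 0.16 ± 0.08, adjusted p = 0.139 without replicate 4). Of 9 CXC chemokines, 3 were called higher and 1 lower in dKO, and 6 and 1 without dKO replicate 4. On leaving out another library, the lower count was 0 (WT replicate 1, 2, 3 or 4). Among 11 CC chemokines, 1 was called higher and 2 lower in dKO, and 3 and 4 without dKO replicate 4. With 1 other library left out, the higher count was 0 (WT replicate 1, 2, 3 or 4 or dKO replicate 2).

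Receptors for these signals included 2 with steep changes. Tgfbr2, the type II receptor for TGF-beta, measured 2.49, 2.83, 2.05 and 2.92 RPKM in WT and 8.74, 8.07, 7.14 and 18.1 RPKM in dKO (1.75 ± 0.27, adjusted p = 0.00412). Il11ra1, the IL-11 receptor chain, which was chosen after its values were seen and has a near-identical neighbour, so that it is uncertain, measured 5.43, 5.98, 6.12 and 4.41 RPKM in WT and 0.511, 0.972, 0.922 and 1.58 RPKM in dKO (-2.04 ± 0.22, adjusted p = 0.000983). The groups did not overlap for either. Ccrl2, an atypical chemerin receptor, was higher (50.6 to 85.7 RPKM in WT, 177 to 236 RPKM in dKO; 1.62 ± 0.17, adjusted p = 0.000867). Fpr2, a formyl peptide receptor, was higher too (68.3 to 77.5 RPKM in WT, 89.7 to 122 RPKM in dKO; 0.54 ± 0.11, adjusted p = 0.011). Ccr7, the receptor that guides dendritic cells to lymph nodes, measured 1213 to 1454 RPKM in WT, 835 to 1188 in dKO replicates 1 to 3 and 225 in replicate 4, and was called lower only without replicate 4 (-0.9995 ± 0.45, adjusted p = 0.15 with 8 libraries, -0.48 ± 0.12, adjusted p = 0.00783 without it).

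In many interferon-stimulated effectors replicate 4 parted from the other dKO libraries. The next lines hold the 250 bases upstream of the RefSeq start of 3 of the genes that rose, printed because the interferon-stimulated response element, at which interferon-activated factors bind, lies in each window. The strand is that of the gene, the build is GRCm38.p6, which differs from the mm9 build of the expression tables, and capitals mark GAAA, any 2 bases and GAAA again, or the reverse complement.
Rsad2: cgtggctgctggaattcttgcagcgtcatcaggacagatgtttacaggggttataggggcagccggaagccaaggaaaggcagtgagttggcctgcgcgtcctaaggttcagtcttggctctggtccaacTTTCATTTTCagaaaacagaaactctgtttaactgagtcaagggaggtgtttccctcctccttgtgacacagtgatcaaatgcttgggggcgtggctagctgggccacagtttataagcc
Ifit1: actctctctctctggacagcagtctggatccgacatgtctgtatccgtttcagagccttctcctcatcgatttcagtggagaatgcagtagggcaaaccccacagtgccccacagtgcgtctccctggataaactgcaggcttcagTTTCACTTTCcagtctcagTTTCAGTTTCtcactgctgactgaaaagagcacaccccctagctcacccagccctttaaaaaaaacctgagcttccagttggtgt
Cxcl10: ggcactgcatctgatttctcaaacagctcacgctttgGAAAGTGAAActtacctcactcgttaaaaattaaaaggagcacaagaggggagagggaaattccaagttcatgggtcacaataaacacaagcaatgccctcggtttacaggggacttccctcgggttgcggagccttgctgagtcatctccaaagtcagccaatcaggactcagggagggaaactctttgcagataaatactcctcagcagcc

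The windows lie at chr12:26456453-26456702, minus strand, for Rsad2, at chr19:34640639-34640888, plus strand, for Ifit1, and at chr5:92348890-92349139, minus strand, for Cxcl10. Searched on both strands, the motif was in 12 of the 31 interferon-stimulated effectors with a window (38.71%), 3 of the 4 called higher with a window, and 280 of 7718 tested genes with a window (3.63%). Over all RefSeq genes with a window the share was 3.46%. Of the genes called higher in both fits, 31 of 412 with a window held it (7.52%). Cmpk2, which was also called higher, had no match in its window. A match is a description of the letters and says nothing of binding.

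Rsad2, which encodes the antiviral enzyme viperin, measured 926, 1074, 965 and 764 RPKM in WT and 2027, 1972, 1847 and 2631 RPKM in dKO. Its dKO libraries all exceeded WT, replicate 4 included (1.18 ± 0.15, adjusted p = 0.00191). Cmpk2, its neighbour in the genome and a mitochondrial nucleotide kinase, measured 398, 442, 384 and 344 RPKM in WT and 943, 963, 852 and 838 RPKM in dKO (1.2 ± 0.10, adjusted p = 0.00038). Ifit1, an RNA-binding antiviral protein, measured 363, 407, 378 and 343 RPKM in WT and 657, 626, 573 and 874 RPKM in dKO (0.86 ± 0.14, adjusted p = 0.00509). Ifi203, a member of a DNA-binding family of near-identical genes and so uncertain, was also higher (53.6 to 66.2 RPKM in WT, 90.05 to 126 RPKM in dKO; 0.73 ± 0.12, adjusted p = 0.00621). Other members were higher in dKO replicates 1 to 3 and at or under the WT level in replicate 4. Ifit2 measured 539, 592, 557 and 482 RPKM in WT and 979.7, 926, 914 and 532 RPKM in dKO (0.59 ± 0.19, adjusted p = 0.0643 with 8 libraries, 0.80 ± 0.08, adjusted p = 3.5e-05 without replicate 4). Ifit3 measured 178, 201, 188 and 176 RPKM in WT and 223, 220.3, 218 and 64.9 RPKM in dKO, and its sign turned from -0.19 with 8 libraries to 0.25 ± 0.06, adjusted p = 0.00877 without replicate 4.

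As a list, of 40 interferon-stimulated effectors, 6 were called higher and 0 lower in dKO, and 20 and 2 without dKO replicate 4. The counts were 9 higher and 0 lower after median-of-ratios scaling, 26 and 0 after scaling without dKO replicate 4, and 6 and 0 after quantile normalization. The median was -0.19 with all 8 libraries and 0.17 without dKO replicate 4, against -0.16 and -0.13 over all genes. Replicate 4 was below the other 7 libraries in 29 of the 40, with a median of -0.79 against the WT mean, whereas over all genes it was below the other 7 in 4330 of 9589. The guanylate binding proteins and immunity GTPases, which attack vacuoles of intracellular pathogens, gave a like pattern. Of 14, 3 were called higher and 0 lower in dKO, and 12 and 0 without dKO replicate 4, with a median of 0.06 with all 8 libraries and 0.36 without dKO replicate 4. Gbp7 (48.1 to 55.2 RPKM in WT, 68.6 to 78 RPKM in dKO; 0.53 ± 0.08, adjusted p = 0.00503) and Irgm1 (169.7 to 180.1 RPKM in WT, 219 to 233 RPKM in dKO; 0.37 ± 0.07, adjusted p = 0.011) were higher with all 8 libraries. Iigp1 measured 39.2, 32.4, 38.9 and 28.8 RPKM in WT and 58.6, 64.6, 67.4 and 3.41 RPKM in dKO, and Gbp2, whose family has near-identical copies, 521, 510.3, 517 and 529 RPKM in WT and 662, 661, 658 and 178 RPKM in dKO. For both, dKO replicates 1 to 3 lay above WT and replicate 4 far below, so the sign was -0.14 and -0.13 with 8 libraries and 0.87 and 0.35 without it (adjusted p = 0.000164 and adjusted p = 0.000672). In WT at 2 h, Iigp1 averaged 3.03 RPKM and Gbp2 160.4 RPKM.

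**Figure D3:**
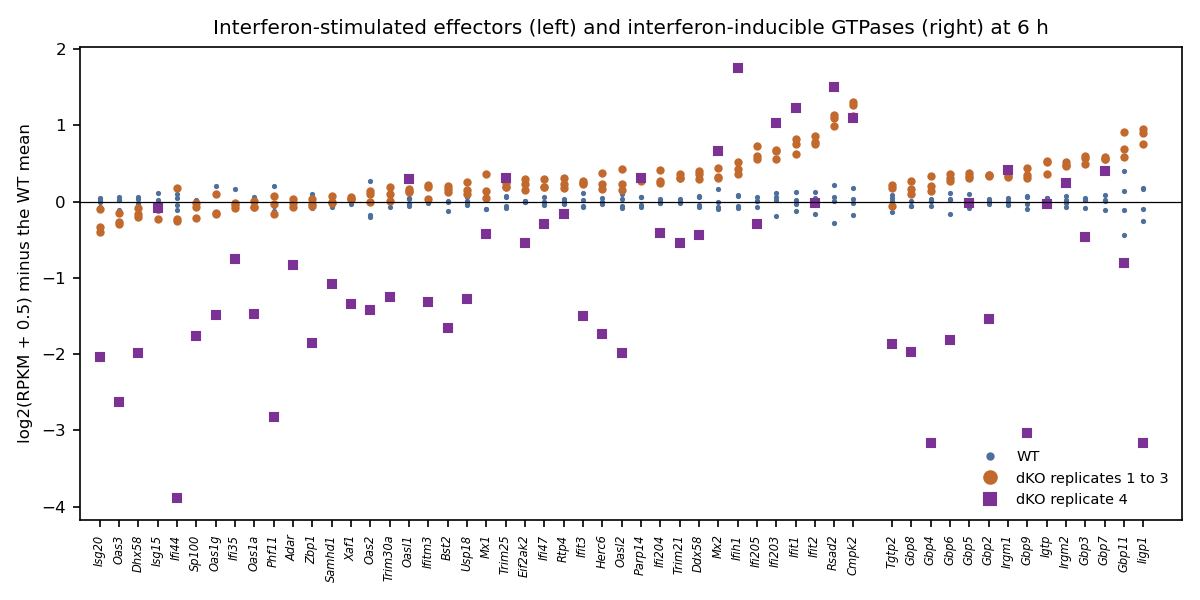
Difference of each library from the WT mean on the log2(RPKM + 0.5) scale (y axis) for 40 interferon-stimulated effectors and 14 interferon-inducible GTPases (x axis), ordered within each list by the difference without dKO replicate 4. dKO replicates 1 to 3 lie above the WT mean for most genes, and replicate 4 (squares) is below the other 7 libraries in 29 and 9 of them.

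Upstream of these genes, Ifnar2, a chain of the type I interferon receptor, was higher (25.2 to 29.4 RPKM in WT, 38.9 to 43.5 RPKM in dKO; 0.58 ± 0.09, adjusted p = 0.00515), and Ifnar1, the other chain, was called higher without replicate 4 (0.27 ± 0.11, adjusted p = 0.111 with 8 libraries, 0.35 ± 0.07, adjusted p = 0.00236 without it). Ifnb1, interferon-beta, measured 13.4, 23.5, 19.5 and 11.3 RPKM in WT and 29.8, 21.9, 19.7 and 551 RPKM in dKO and was not called in either fit (1.65 ± 0.97, adjusted p = 0.255; 0.52 ± 0.23, adjusted p = 0.0843 without replicate 4). WT at 2 h averaged 749 RPKM. Irf4 (208 to 229 RPKM in WT, 79.1 to 156 RPKM in dKO; -0.81 ± 0.20, adjusted p = 0.0265) and Irf8 (383 to 510.5 RPKM in WT, 146 to 313 RPKM in dKO; -0.83 ± 0.24, adjusted p = 0.0409), interferon regulatory factors that also set dendritic cell subsets, were lower. Irf7, the amplifier of interferon production, measured 439 to 569 RPKM in WT, 496 to 607 in dKO replicates 1 to 3 and 99.9 in replicate 4, and did not pass in either fit. Of 22 genes of this list, 1 was called higher and 5 lower in dKO, and 4 and 6 without dKO replicate 4. When another library was dropped, the lower count was 0 (WT replicate 1), 1 (WT replicate 3 or 4) or 2 (WT replicate 2 or dKO replicate 2). Irf4 was not called without WT replicate 1, 2, 3 or 4 or dKO replicate 2 (adjusted p = 0.0554 to 0.0802). Irf8 was not called without WT replicate 1, 2, 3 or 4 or dKO replicate 1 or 2 (adjusted p = 0.0584 to 0.118), nor after median-of-ratios scaling.

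The list was also read before LPS. At 0 h, where 158 genes were called higher (1.65%) and 707 lower (7.37%), 22 of the 40 effectors were called lower in dKO and none higher, and 8 of the 14 GTPases were called lower. The library labelled dKO 0 h replicate 2 stood apart in that group (its Cxcl11 was 10.9 RPKM against 0.0594 to 0.34 in the others). Its Tnf was 6059.8 RPKM and its Il6 1124 RPKM, against 14.8 to 18.5 and 0.836 to 2.04 in the others. Whether that library had been exposed to LPS was not tested. Without it, 714 genes were higher (7.45%), 1964 lower (20.5%), and 40 of 40 effectors were called lower. The median over the effectors was -0.73 at 0 h and -0.19 at 6 h with all libraries, and -0.99 and 0.17 without the library that stands apart at each time. The test of the difference itself, the interaction of genotype and time, called 72 genes more positive at 6 h than at 0 h (0.751%) and 57 more negative (0.594%) over all genes, of which 2 effectors and 2 GTPases were more positive. With both outlying libraries left out it called 997 (10.4%) and 1108 (11.6%), among them 39 of the 40 effectors and 13 of the 14 GTPases, all more positive, so these counts rest on leaving those 2 libraries out.

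The 4 list members that passed the interaction test with all 16 libraries were named after their values were seen. Rtp4, a receptor-transporting protein with antiviral activity, measured 20.05, 20.7, 17.4 and 24.7 RPKM in WT and 5.17, 9.17, 5.23 and 3.01 RPKM in dKO at 0 h, and 72.7, 72.1, 75.4 and 74 RPKM in WT and 91.2, 82.9, 86 and 65.9 RPKM in dKO at 6 h (interaction 2.005, adjusted p = 0.00558). The 0 h groups did not overlap, and the 6 h groups did. Irgm1, an immunity-related GTPase, measured 22.9, 25.5, 22.1 and 25.8 RPKM in WT and 13, 10.4, 11.7 and 14 RPKM in dKO at 0 h, below WT in every library, and was above WT in every library at 6 h (interaction 1.32, adjusted p = 0.00024). Ifi47 (interaction 1.17, adjusted p = 0.00302) and Igtp (interaction 1.18, adjusted p = 0.0195), both GTPases of that family, had every dKO library under WT at 0 h. At 6 h alone, Rtp4, Ifi47 and Igtp were called higher only without dKO replicate 4 (0.24 ± 0.06, adjusted p = 0.00772 for Rtp4, 0.23 ± 0.06, adjusted p = 0.00964 for Ifi47 and 0.47 ± 0.06, adjusted p = 0.000286 for Igtp). Of the 4 interactions, that of Igtp was not called without WT 0 h replicate 2 or 4 or WT 6 h replicate 1 (adjusted p = 0.0503 to 0.057). Leaving out 1 library at a time, an alternative chosen after seeing the data, moved the 2 counts over all genes between 36 and 358 genes and between 22 and 261 genes, the highest without dKO 6 h replicate 4 for the first and without dKO 0 h replicate 2 for the second.

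Maturation genes of dendritic cells were called lower or not at all with 8 libraries. Fscn1, which encodes fascin, the actin bundler of dendrites, measured 1663, 1410.2, 1535 and 1869.9 RPKM in WT and 893, 905, 877 and 303 RPKM in dKO, under WT in each library and lowest in replicate 4 (-1.24 ± 0.34, adjusted p = 0.0367, and -0.85 ± 0.09, adjusted p = 6.7e-05 without it). Of 19 migration and maturation genes, 0 were called higher and 8 lower in dKO, and 1 and 14 without dKO replicate 4, with medians of -0.84 with all 8 libraries and -0.48 without dKO replicate 4. Median-of-ratios scaling gave 0 and 7. For other single libraries left out, the lower count was 2 (WT replicate 1 or 4), 3 (WT replicate 3) or 4 (WT replicate 2 or dKO replicate 2). Replicate 4 was below the other 7 libraries in 15 of the 19, and over all genes in 4330 of 9589. Fscn1 was not called without WT replicate 1, 2, 3 or 4 or dKO replicate 2 (adjusted p = 0.05 to 0.107).

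Ligands that costimulate T cells differed in direction. Cd80 (251 to 292 RPKM in WT, 137 to 229 RPKM in dKO; -0.55 ± 0.15, adjusted p = 0.0403) and Cd70, the CD27 ligand (57.2 to 70.1 RPKM in WT, 14.1 to 37.4 RPKM in dKO; -1.22 ± 0.28, adjusted p = 0.0191), were lower. Icosl, the ICOS ligand, was higher (29.2 to 32 RPKM in WT, 39.8 to 54.2 RPKM in dKO; 0.63 ± 0.11, adjusted p = 0.00813). Cd86 and Cd40 measured 300.1 to 308 RPKM in WT, 207 to 274 in dKO replicates 1 to 3 and 146 in replicate 4 for the first and 544 to 629 RPKM in WT, 413 to 468 in dKO replicates 1 to 3 and 105 in replicate 4 for the second. Each was below WT in all 4 dKO libraries and called lower only without replicate 4 (-0.33 ± 0.09, adjusted p = 0.00995 and -0.40 ± 0.07, adjusted p = 0.00149, against adjusted p = 0.0781 and adjusted p = 0.168 with it). Havcr2, the inhibitory receptor TIM-3, was lower (2.96 to 3.21 RPKM in WT, 0.637 to 1.38 RPKM in dKO; -1.18 ± 0.17, adjusted p = 0.00287). Of 21 costimulatory and coinhibitory genes, 2 were called higher and 6 lower in dKO, and 4 and 11 without dKO replicate 4. As other libraries were left out, the higher count was 1 (WT replicate 1, 2, 3 or 4 or dKO replicate 1 or 2) and the lower count was 1 (WT replicate 1), 2 (WT replicate 2 or 3) or 3 (WT replicate 4 or dKO replicate 2). Cd80 was not called without WT replicate 1, 2, 3 or 4 or dKO replicate 1 or 2 (adjusted p = 0.0627 to 0.105), nor after median-of-ratios scaling. Cd70 was not called without WT replicate 1, 2 or 3 (adjusted p = 0.0539 to 0.0605).

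MHC class I presentation is the pathway the immunoproteasome feeds. Of 18 genes of that list, 1 was called higher and 2 lower in dKO, and 3 and 3 without dKO replicate 4, where 18.5% of all genes were called in either direction with 8 libraries and 45% without replicate 4. The counts were 3 higher and 2 lower after median-of-ratios scaling, 7 and 3 after scaling without dKO replicate 4, and 1 and 2 after quantile normalization. On leaving out another library, the lower count was 1 (WT replicate 1, 3 or 4). H2-K1 (1192 to 1247 RPKM in WT, 968 to 1342 RPKM in dKO), B2m, the light chain (3995 to 4237 RPKM in WT, 2950.1 to 4102 RPKM in dKO), and the peptide transporter Tap1 (208 to 228 RPKM in WT, 120.3 to 237 RPKM in dKO) did not pass in either fit. Their 8-library differences were -0.01 ± 0.12, adjusted p = 0.967, -0.14 ± 0.13, adjusted p = 0.449 and -0.20 ± 0.20, adjusted p = 0.505. The non-classical genes H2-T22 and H2-T10 moved in opposite directions. H2-T22 measured 60.9, 45.2, 54.6 and 61.8 RPKM in WT and 16.6, 14.6, 17.2 and 7.07 RPKM in dKO (-2.03 ± 0.26, adjusted p = 0.00208). H2-T10 measured 7.81, 8.16, 9.16 and 7.32 RPKM in WT and 30.4, 30.2, 31.9 and 16.8 RPKM in dKO (1.65 ± 0.20, adjusted p = 0.00178). They are near-identical copies, so reads could be assigned to either, and the split is uncertain. Cd1d1, which presents lipids to NKT cells, measured 58.8, 45.1, 40.3 and 67.4 RPKM in WT and 22.3, 19.9, 18.5 and 21 RPKM in dKO (-1.33 ± 0.16, adjusted p = 0.00183).

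For MHC class II, H2-DMb2, a chain of the peptide editor H2-DM with a near-identical copy, was lower (118 to 138 RPKM in WT, 79.8 to 87.2 RPKM in dKO; -0.61 ± 0.08, adjusted p = 0.00251). So was Ciita, the class II transactivator (66 to 79.96 RPKM in WT, 24 to 54.4 RPKM in dKO; -0.85 ± 0.23, adjusted p = 0.0359). H2-Aa did not pass in either fit (-0.13 ± 0.10, adjusted p = 0.389). The invariant chain Cd74 was called lower only without replicate 4 (-0.23 ± 0.10, adjusted p = 0.146 with 8 libraries, -0.27 ± 0.08, adjusted p = 0.0225 without it). Of 15 genes, 1 was called higher and 3 lower in dKO, and 3 and 8 without dKO replicate 4. With 1 other library left out, the higher count was 0 (WT replicate 1, 2, 3 or 4 or dKO replicate 2) and the lower count was 1 (WT replicate 2 or 3). The counts were 2 higher and 1 lower after median-of-ratios scaling, 3 and 3 after scaling without dKO replicate 4, and 1 and 3 after quantile normalization. Ciita was not called without WT replicate 1, 2, 3 or 4 or dKO replicate 1 or 2 (adjusted p = 0.0568 to 0.104), nor after median-of-ratios scaling.

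Called dendritic cell markers were mostly lower and called macrophage markers mostly higher. Batf3, the factor of cross-presenting dendritic cells, measured 42.3, 28.5, 34.6 and 33.9 RPKM in WT and 19.2, 23.5, 16.7 and 13.9 RPKM in dKO (-0.92 ± 0.18, adjusted p = 0.0101). Flt3, the receptor of the dendritic cell growth factor, measured 1.35, 1.57, 2.002 and 1.11 RPKM in WT and 0.408, 0.478, 0.664 and 0.282 RPKM in dKO (-1.06 ± 0.18, adjusted p = 0.00677). The groups did not overlap for either, and Flt3 passed the filter through its WT libraries alone. Zbtb46, a classical dendritic cell factor, was lower (23.6 to 26.9 RPKM in WT, 10.4 to 18.5 RPKM in dKO; -0.67 ± 0.17, adjusted p = 0.0319). Itgax, which encodes CD11c, measured 196 to 215 RPKM in WT, 170.4 to 186 in dKO replicates 1 to 3 and 354 in replicate 4 and was called lower only without replicate 4 (0.03 ± 0.22, adjusted p = 0.924 with 8 libraries, -0.22 ± 0.06, adjusted p = 0.0148 without it). Of 26 dendritic cell genes, 1 was called higher and 10 lower in dKO, and 3 and 16 without dKO replicate 4. When another library was dropped, the higher count was 0 (WT replicate 1, 2, 3 or 4) and the lower count was 5 (WT replicate 1, 3 or 4 or dKO replicate 2) or 6 (WT replicate 2). The counts were 1 higher and 6 lower after median-of-ratios scaling, 6 and 13 after scaling without dKO replicate 4, and 1 and 9 after quantile normalization. Their summed level was 2471 to 2677 RPKM in WT, 2331 to 2363 in dKO replicates 1 to 3 and 2685 in replicate 4. Zbtb46 was not called without WT replicate 1, 2, 3 or 4 or dKO replicate 2 (adjusted p = 0.064 to 0.097), nor after median-of-ratios scaling.

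On the macrophage side, Cebpb, a factor of myeloid inflammation, measured 50.8, 61.3, 59.1 and 52.2 RPKM in WT and 105, 122, 92 and 109 RPKM in dKO (0.93 ± 0.11, adjusted p = 0.00166). Each dKO library was above WT. Lyz2, lysozyme, whose reads Lyz1 could share, was higher (2416 to 2933 RPKM in WT, 4311 to 5940.1 in dKO replicates 1 to 3 and 13141 in replicate 4; 1.27 ± 0.30, adjusted p = 0.0232). Csf1r, the M-CSF receptor, measured 19.3 to 22.2 RPKM in WT, 31.4 to 38.6 in dKO replicates 1 to 3 and 171 in replicate 4 and was called without replicate 4 (1.34 ± 0.48, adjusted p = 0.0822 with 8 libraries, 0.78 ± 0.08, adjusted p = 6.5e-05 without it). C1qb, a complement chain that macrophages make, was lower (116 to 156 RPKM in WT, 27 to 40.1 in dKO replicates 1 to 3 and 100.2 in replicate 4; -1.56 ± 0.35, adjusted p = 0.0181). Of 20 macrophage markers, 8 were called higher and 1 lower in dKO, and 12 and 4 without dKO replicate 4. For other single libraries left out, the higher count was 5 (WT replicate 1 or 4) and the lower count was 0 (WT replicate 1 or 3). The summed level of the list was 3347 to 4105 RPKM in WT, 5688 to 7433 in dKO replicates 1 to 3 and 16201 in replicate 4, most of it Lyz2. Fewer or more cells of a type and a change of RNA within the cells cannot be told apart in these bulk samples. Lyz2 was not called without WT replicate 1, 2, 3 or 4 (adjusted p = 0.0548 to 0.0746). C1qb was not called without WT replicate 1 or 3 (adjusted p = 0.0572 to 0.058).

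Called markers of granulocytes were mostly lower in dKO. S100a9, a calcium-binding protein of neutrophils, measured 292, 332, 269 and 204 RPKM in WT and 107, 92.5, 94.2 and 173 RPKM in dKO (-1.26 ± 0.22, adjusted p = 0.00758). Epx, eosinophil peroxidase, measured 60.8, 85.4, 50 and 60.3 RPKM in WT and 35.2, 33.5, 31.1 and 20.2 RPKM in dKO (-1.09 ± 0.21, adjusted p = 0.0105). Ear1, an eosinophil-associated ribonuclease with near-identical copies and so uncertain, was lower too (-1.33 ± 0.24, adjusted p = 0.00818). Of 14 neutrophil markers, 1 was called higher and 8 lower in dKO, and 1 and 8 without dKO replicate 4. The groups overlapped for the neutrophil markers Ngp (64.7 to 94.6 RPKM in WT, 55.9 to 97.6 RPKM in dKO) and Camp (9.91 to 12.1 RPKM in WT, 10.3 to 12.6 RPKM in dKO). As other libraries were left out, the higher count was 0 (WT replicate 1, 2, 3 or 4 or dKO replicate 1). Of 6 eosinophil markers, 0 were called higher and 4 lower in dKO, and 0 and 4 without dKO replicate 4. On leaving out another library, the lower count was 2 (WT replicate 1, 2 or 4 or dKO replicate 3). Neutrophil markers summed to 678 to 958 RPKM in WT, 493 to 566 in dKO replicates 1 to 3 and 632 in replicate 4, and eosinophil markers to 718 to 1242 RPKM in WT, 473 to 681 in dKO replicates 1 to 3 and 641 in replicate 4. Cldn1, claudin-1, found in Langerhans-type cells, was lower with Cd207 (4.41 to 9.53 RPKM in WT, 1.13 to 1.34 in dKO replicates 1 to 3 and 3.69 in replicate 4; -1.73 ± 0.34, adjusted p = 0.0107, and -2.06 ± 0.20, adjusted p = 3.4e-05 without replicate 4). Of 5 such markers, 2 were called lower with 8 libraries and 5 without replicate 4. B cell markers summed to between 1.28 and 2.72 RPKM in all libraries, and the defining genes Hba-a1 and Car1 of erythroid cells and Gzma and Prf1 of cytotoxic cells were at 0. The part of these cells in the differences above was not tested.

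**Figure D4:**
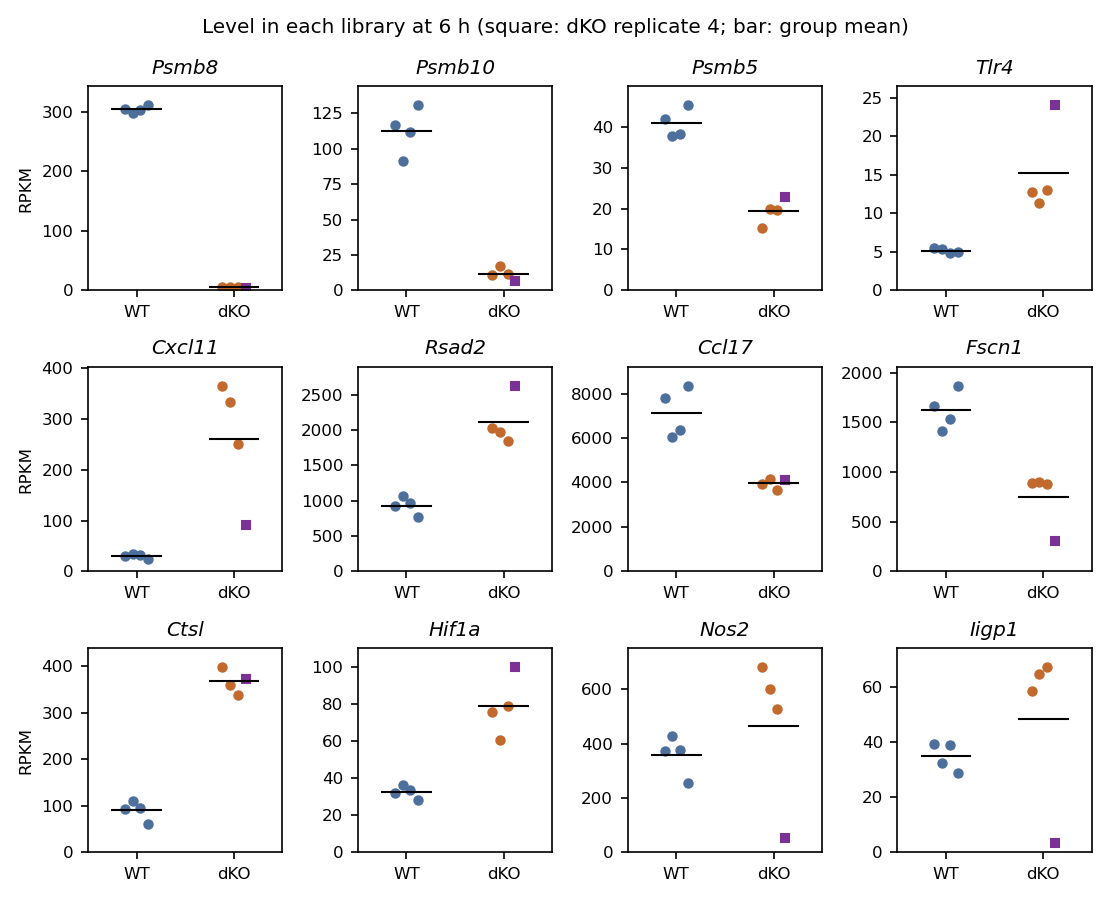
RPKM (y axes, each from 0) of 12 genes in the 4 WT and 4 dKO libraries at 6 h, with bars at the group means and squares for dKO replicate 4. Replicate 4 lies with the other dKO libraries for Psmb8, Ccl17 and Ctsl, above them for Tlr4, Rsad2 and Hif1a, and far below them for Cxcl11, Fscn1, Nos2 and Iigp1.

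Of 34 genes of glycolysis and the hypoxia response, 11 rose and 1 fell with 8 libraries. The factor HIF-1 binds the core ACGTG. The 250 bases upstream of the RefSeq starts of Bnip3 and Hk2, 2 of the called genes, are printed because each holds that core, in capitals on either strand (CACGT is its reverse complement, and CACGTG reads as a match on both).
Bnip3: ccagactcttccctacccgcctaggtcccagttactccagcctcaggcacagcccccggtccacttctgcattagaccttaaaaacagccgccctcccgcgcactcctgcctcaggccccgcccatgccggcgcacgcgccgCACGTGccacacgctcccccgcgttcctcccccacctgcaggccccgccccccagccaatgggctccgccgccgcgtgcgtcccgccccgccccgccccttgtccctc
Hk2: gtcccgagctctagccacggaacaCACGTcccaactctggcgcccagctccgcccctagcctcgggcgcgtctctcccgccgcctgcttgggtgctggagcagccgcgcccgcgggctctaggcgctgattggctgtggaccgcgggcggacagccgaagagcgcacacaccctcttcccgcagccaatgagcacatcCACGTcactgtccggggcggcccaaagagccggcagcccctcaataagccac

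These GRCm38.p6 windows lie at chr7:138909507-138909756, minus strand, and at chr6:82774455-82774704, minus strand, and are given in the direction of the gene. The core stood in 9 of the 11 glycolysis and HIF-1 genes called higher, in 20 of the 32 tested members with a window (62.5%), in 26.13% of all tested genes with a window and in 18.49% of all RefSeq genes with one. So short a core occurs often, and a match is a description only.

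Hif1a, the oxygen-regulated subunit, measured 32.3, 36.1, 33.5 and 28.2 RPKM in WT and 75.8, 60.8, 79 and 100.2 RPKM in dKO, so each dKO library exceeded WT and replicate 4 was the highest (1.25 ± 0.15, adjusted p = 0.0018). Hk2, hexokinase, measured 28.1, 30.6, 28.5 and 25.2 RPKM in WT and 65.3, 53.7, 42.4 and 59.6 RPKM in dKO (0.95 ± 0.14, adjusted p = 0.00342). Bnip3, a mitophagy receptor, measured 26.5, 27, 24.8 and 18 RPKM in WT and 64.7, 49.4, 40.2 and 48.8 RPKM in dKO (1.06 ± 0.17, adjusted p = 0.00578). Slc2a1, the glucose transporter GLUT1, was higher (37.6 to 54.7 RPKM in WT, 56 to 146 RPKM in dKO; 1.18 ± 0.28, adjusted p = 0.0231). So were Ero1l, an oxidase of protein folding (19.8 to 29.5 RPKM in WT, 38.7 to 78 RPKM in dKO; 1.23 ± 0.22, adjusted p = 0.00808), and Pdk1, which restrains pyruvate entry into mitochondria (4.75 to 5.37 RPKM in WT, 6.86 to 10.7 RPKM in dKO; 0.72 ± 0.14, adjusted p = 0.00956). Ldha, lactate dehydrogenase (0.45 ± 0.12, adjusted p = 0.00957), and Egln3, a HIF prolyl hydroxylase (1.19 ± 0.30, adjusted p = 0.00832), were called only without replicate 4, at adjusted p = 0.0511 and adjusted p = 0.0671 with it. Of 34 genes of the list, 11 were called higher and 1 lower in dKO, and 21 and 3 without dKO replicate 4, with medians of 0.44 with all 8 libraries and 0.48 without dKO replicate 4. With 1 other library left out, the higher count was 5 (WT replicate 1 or 4), 6 (WT replicate 2) or 7 (dKO replicate 1 or 2) and the lower count was 0 (WT replicate 1 or 4). The counts were 14 higher and 1 lower after median-of-ratios scaling, 22 and 1 after scaling without dKO replicate 4, and 12 and 1 after quantile normalization. Slc2a1 was not called without WT replicate 1, 2 or 4 or dKO replicate 1 or 2 (adjusted p = 0.0528 to 0.0746).

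Genes of arginine and itaconate metabolism were called higher or not at all with 8 libraries. Slc7a2, the cationic amino acid transporter that brings in arginine, measured 305, 389, 346 and 245 RPKM in WT and 674, 663, 595 and 658 RPKM in dKO (1.03 ± 0.14, adjusted p = 0.00278), and all dKO libraries, replicate 4 included, were above WT. Nos2, inducible nitric oxide synthase, measured 373, 429, 377 and 253 RPKM in WT and 683, 600.4, 529 and 52.7 RPKM in dKO. dKO replicates 1 to 3 were above WT and replicate 4 far below, so the difference was -0.10 ± 0.74, adjusted p = 0.931 with 8 libraries and 0.77 ± 0.16, adjusted p = 0.00288 without it. WT at 2 h averaged 39.96 RPKM. Irg1, which makes itaconate, was higher (577 to 719 RPKM in WT, 962 to 2221 RPKM in dKO; 1.04 ± 0.23, adjusted p = 0.0176). Also higher were Gch1, which supplies the cofactor of nitric oxide synthase (28.2 to 31.2 RPKM in WT, 39 to 44 RPKM in dKO; 0.45 ± 0.08, adjusted p = 0.00824), and Sod2, the mitochondrial superoxide dismutase (89 to 107 RPKM in WT, 148 to 172 RPKM in dKO; 0.68 ± 0.10, adjusted p = 0.00285). Of 17 genes, 5 were called higher and 0 lower in dKO, and 9 and 3 without dKO replicate 4. When another library was dropped, the lower count was 1 (dKO replicate 3). Irg1 was not called without WT replicate 1, 3 or 4 (adjusted p = 0.0532 to 0.0611).

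The lysosomal list had more members called higher than any other list, 20 of 49 with 8 libraries. The factors TFEB and TFE3 bind the palindrome CACGTG, which contains the ACGTG above. The windows of Gla and Lamp1 are printed, with CACGTG in capitals, because they hold it more than once.
Gla: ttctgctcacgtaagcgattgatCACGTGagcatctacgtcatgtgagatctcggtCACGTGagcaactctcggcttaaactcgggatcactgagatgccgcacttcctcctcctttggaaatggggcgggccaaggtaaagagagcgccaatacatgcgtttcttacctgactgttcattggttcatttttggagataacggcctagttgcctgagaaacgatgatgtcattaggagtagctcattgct
Lamp1: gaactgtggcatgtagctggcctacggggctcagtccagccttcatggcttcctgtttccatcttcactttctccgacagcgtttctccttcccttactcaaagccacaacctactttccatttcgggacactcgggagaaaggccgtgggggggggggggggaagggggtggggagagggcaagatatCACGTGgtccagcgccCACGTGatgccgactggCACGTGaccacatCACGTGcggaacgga

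The windows lie at chrX:134601006-134601255, minus strand, and at chr8:13158911-13159160, plus strand of GRCm38.p6, in the direction of the gene. CACGTG stood in 8 of the 16 lysosomal genes called higher that had a window, in 11 of the 38 tested members with one (28.95%) and in 10.34% of all tested genes with a window, against 6.86% over RefSeq. Again, a match describes letters and not binding.

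Gla, alpha-galactosidase, measured 10.9, 11.1, 11.2 and 8.82 RPKM in WT and 30.3, 24.8, 25 and 18.8 RPKM in dKO (1.18 ± 0.15, adjusted p = 0.00203). Lamp1, a membrane protein of lysosomes, measured 234, 253, 244 and 224 RPKM in WT and 400.5, 389, 373 and 485 RPKM in dKO (0.78 ± 0.10, adjusted p = 0.0024). All dKO libraries were above all WT libraries for both, with replicate 4 the lowest dKO library for Gla and highest for Lamp1. Ctsb, cathepsin B, was higher too (334 to 411 RPKM in WT, 596 to 728 RPKM in dKO; 0.77 ± 0.10, adjusted p = 0.0024). Ctsk, cathepsin K, was the 1 member called lower with 8 libraries (8.03 to 13.4 RPKM in WT, 3.82 to 4.94 RPKM in dKO; -1.23 ± 0.17, adjusted p = 0.00285). Of 49 lysosomal genes, 20 were called higher and 1 lower in dKO, and 29 and 7 without dKO replicate 4, with medians of 0.31 with all 8 libraries and 0.23 without dKO replicate 4. The counts were 24 higher and 1 lower after median-of-ratios scaling, 31 and 2 after scaling without dKO replicate 4, and 19 and 1 after quantile normalization. For other single libraries left out, the higher count was 7 (WT replicate 1 or 4), 8 (WT replicate 3) or 10 (WT replicate 2) and the lower count was 2 (dKO replicate 3). Replicate 4 was above the other 7 libraries in 30 of the 49, and over all genes in 2543 of 9589.

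Called lipid genes were split. Abca1, the cholesterol exporter (6.59 to 7.48 RPKM in WT, 13.3 to 24.4 RPKM in dKO; 1.096 ± 0.19, adjusted p = 0.00646), and Soat1, which esterifies cholesterol for storage (7.49 to 10.7 RPKM in WT, 15.9 to 24.1 RPKM in dKO; 1.06 ± 0.16, adjusted p = 0.00439), were higher. Acadl, a dehydrogenase of fatty acid oxidation, measured 56.7, 64, 59.4 and 58.1 RPKM in WT and 21.9, 18.1, 20.2 and 17.5 RPKM in dKO with a wide gap between groups (-1.597 ± 0.10, adjusted p = 4.6e-05). Nr1h3, the sterol receptor LXR-alpha, was lower (6.51 to 7.63 RPKM in WT, 1.87 to 4.46 RPKM in dKO; -1.07 ± 0.22, adjusted p = 0.0123). Of 23 genes of lipid handling, 4 were called higher and 3 lower in dKO, and 8 and 6 without dKO replicate 4. The mevalonate pathway kinases Mvk (5.21 to 5.72 RPKM in WT, 2.49 to 3.54 RPKM in dKO; -0.72 ± 0.12, adjusted p = 0.00672) and Pmvk (26.1 to 42.6 RPKM in WT, 11.6 to 19.2 RPKM in dKO; -1.06 ± 0.19, adjusted p = 0.00721) were lower. Of 27 synthesis genes, 1 was called higher and 4 lower in dKO, and 2 and 11 without dKO replicate 4, with 2 lower after quantile normalization. As other libraries were left out, the higher count was 0 (WT replicate 1, 2, 3 or 4 or dKO replicate 1) and the lower count was 2 (WT replicate 1 or 4).

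Among iron and antioxidant genes, Hmox1, heme oxygenase (35.9 to 41.9 RPKM in WT, 52.2 to 89.99 RPKM in dKO; 0.82 ± 0.16, adjusted p = 0.00977), Fth1, ferritin heavy chain (6716 to 8591 RPKM in WT, 10752 to 13803 RPKM in dKO; 0.73 ± 0.13, adjusted p = 0.00796), and Prdx5, a peroxiredoxin (677 to 747 RPKM in WT, 939 to 1338 RPKM in dKO; 0.66 ± 0.12, adjusted p = 0.00959), were higher. Gsr, glutathione reductase (22.4 to 23.9 RPKM in WT, 9.34 to 14.8 RPKM in dKO; -0.92 ± 0.13, adjusted p = 0.00342), and Sod1, the cytosolic superoxide dismutase (109 to 123 RPKM in WT, 70.3 to 84 RPKM in dKO; -0.57 ± 0.09, adjusted p = 0.00503), were lower. Of 27 genes, 4 were called higher and 2 lower in dKO, and 8 and 7 without dKO replicate 4, so the list had no single direction. Called matrix and protease genes were mainly higher. Thbs1, thrombospondin, measured 226, 270.4, 244 and 184 RPKM in WT and 535, 514, 540.0 and 1281 RPKM in dKO (1.53 ± 0.29, adjusted p = 0.0098). Plau, urokinase, measured 4.46, 5.69, 5.98 and 2.47 RPKM in WT and 13, 12.4, 13.1 and 28.7 RPKM in dKO (1.72 ± 0.33, adjusted p = 0.00996). Replicate 4 was the highest library for both, and the groups did not overlap. Of 33 genes of matrix, proteolysis and adhesion, 13 were called higher and 1 lower in dKO, and 21 and 4 without dKO replicate 4. On leaving out another library, the higher count was 7 (WT replicate 1, 3 or 4) or 8 (WT replicate 2 or dKO replicate 1). F10, coagulation factor X (174 to 228 RPKM in WT, 359 to 638 RPKM in dKO; 1.09 ± 0.18, adjusted p = 0.00603), and Clec4e, the lectin Mincle (157 to 252 RPKM in WT, 479 to 899 RPKM in dKO; 1.54 ± 0.22, adjusted p = 0.00302), were higher. Mfge8, which bridges apoptotic cells to phagocytes, was lower (139 to 182 RPKM in WT, 51.7 to 91.4 RPKM in dKO; -1.37 ± 0.18, adjusted p = 0.00241).

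Called replication genes were lower with 8 libraries. Mcm3 (9.38 to 11.8 RPKM in WT, 4.92 to 6.98 RPKM in dKO; -0.74 ± 0.13, adjusted p = 0.00813), Mcm5 (3.0001 to 3.86 RPKM in WT, 1.89 to 2.24 RPKM in dKO; -0.61 ± 0.12, adjusted p = 0.00935) and Mcm6 (5.27 to 7.27 RPKM in WT, 2.98 to 4.05 RPKM in dKO; -0.80 ± 0.14, adjusted p = 0.00735), subunits of the replicative helicase, were under WT in every dKO library. Of 25 genes of replication and mitosis, 0 were called higher and 6 lower in dKO, and 1 and 15 without dKO replicate 4. With 1 other library left out, the lower count was 3 (WT replicate 1, 2, 3 or 4 or dKO replicate 2). After median-of-ratios scaling it was 3, and at 0 h 23 were called lower. Among genes that handle damaged protein, Vcp, the segregase that extracts ubiquitinated proteins (59.1 to 65.7 RPKM in WT, 30.8 to 43.1 RPKM in dKO; -0.74 ± 0.11, adjusted p = 0.004), Sdf2l1, an endoplasmic reticulum stress target (36.1 to 45.2 RPKM in WT, 23.9 to 27.4 RPKM in dKO; -0.61 ± 0.10, adjusted p = 0.00559), and Bag3, an HSP70 cochaperone (17.9 to 18.9 RPKM in WT, 10.4 to 14.1 RPKM in dKO; -0.60 ± 0.11, adjusted p = 0.00905), were lower, the latter not after median-of-ratios scaling. Of 23 heat shock and ubiquitin genes, 0 were called higher and 4 lower in dKO, and 3 and 6 without dKO replicate 4. Of 28 genes of the unfolded protein and integrated stress responses, 1 was called higher and 6 lower in dKO, and 3 and 7 without dKO replicate 4. When another library was dropped, the higher count was 0 (WT replicate 1, 2, 3 or 4 or dKO replicate 2 or 3) and the lower count was 2 (WT replicate 1 or 4) or 3 (WT replicate 2).

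**Figure D5:**
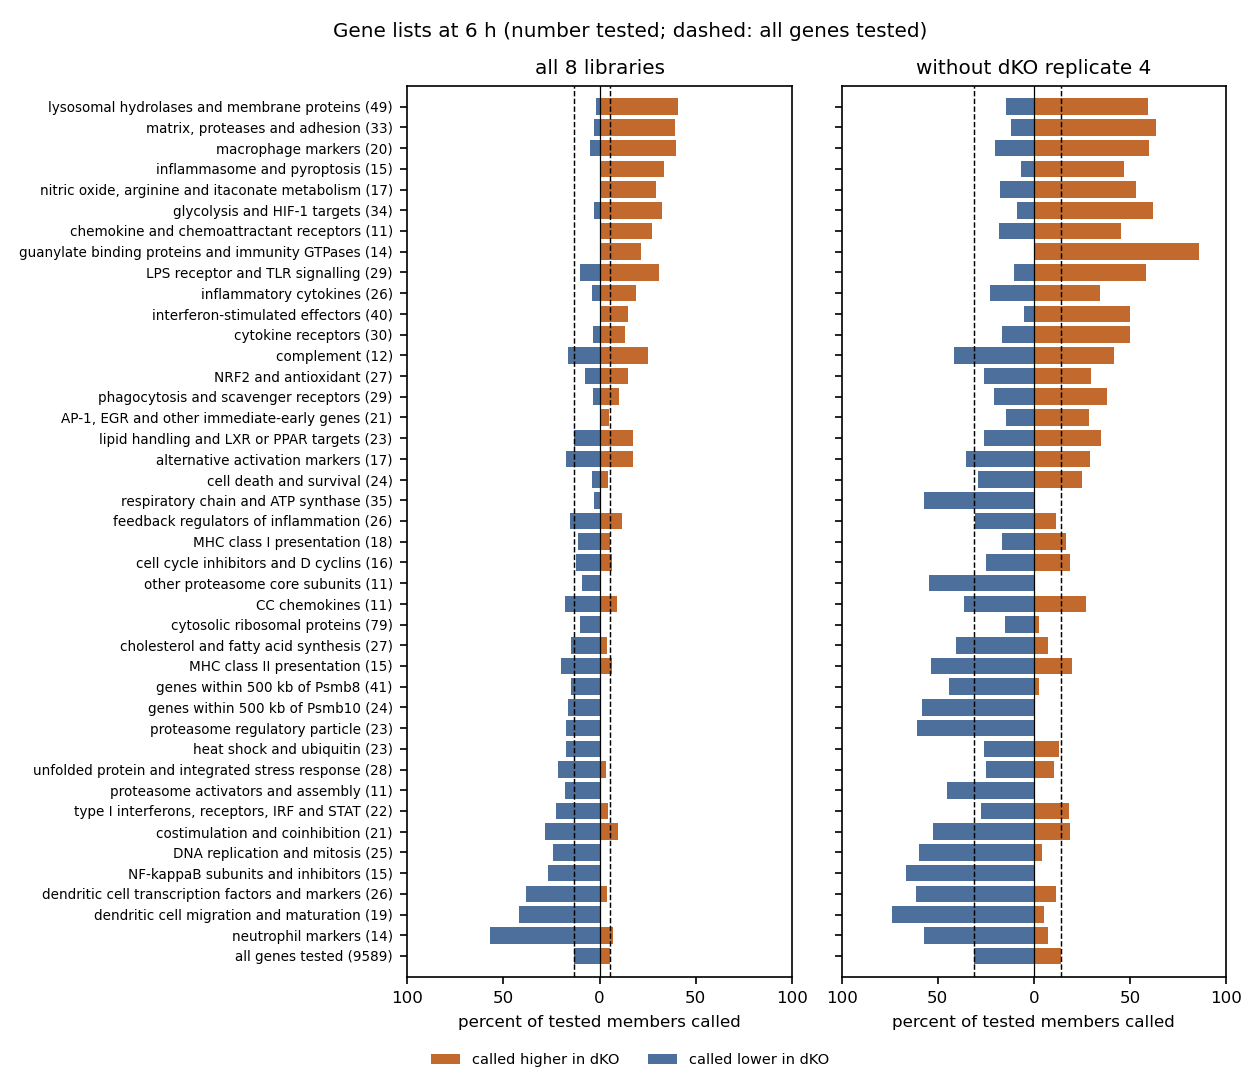
Percent of the tested members of each gene list (y axis, lists with at least 10 tested members, number in brackets) called higher (right of 0) or lower (left of 0) in dKO, with 8 libraries (left panel) and without dKO replicate 4 (right panel). Dashed lines mark all genes tested (5.4% higher and 13.1% lower at left, 13.9% and 31.1% at right). With 8 libraries the lysosomal, macrophage and matrix lists reach farthest to the right and the neutrophil and dendritic cell maturation lists farthest to the left.

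The share of calls differed between chromosomes, which was not tested. Of the 598 tested genes of chromosome 4, 54 (9.03%) were called in both fits and differed at least 2-fold, 37 of them lower, against 4.48% over all genes. Chromosome 16 followed with 6.71%. In 10 Mb windows with at least 20 tested genes, of which there were 181 with a median of 4.0%, the window from 140 to 150 Mb of chromosome 4 (mm9) held 14 such genes of 62 (22.6%), 11 of them lower. Chromosome 1 from 60 to 70 Mb was next with 22.2%. Extl1, Hdac1, Pik3cd, Fbxo44 and Zfp933 were chosen after their values were seen. Of the chromosome 4 genes named here, Extl1, Hdac1 and Tcea3 lie outside the window from 140 to 150 Mb. Extl1, a glycosyltransferase of heparan sulfate (chromosome 4, 133912288 to 133928462), measured 3.24, 3.09, 3.55 and 3.34 RPKM in WT and 0.141, 0.0632, 0.143 and 0 RPKM in dKO (-2.703 ± 0.13, adjusted p = 8.6e-06). It passed the filter through its WT libraries alone, as did Fbxo44. Hdac1, a histone deacetylase (chromosome 4, 129193348 to 129219890), measured 32.2, 34.4, 30.5 and 32.4 RPKM in WT and 13.1, 12, 12.3 and 6.49 RPKM in dKO (-1.56 ± 0.20, adjusted p = 0.00203), and Pik3cd, the leukocyte catalytic subunit of PI 3-kinase (chromosome 4, 149023277 to 149075738), 56.6, 53.6, 56.2 and 58.9 RPKM in WT and 19.95, 24.5, 21.6 and 17.5 RPKM in dKO (-1.42 ± 0.11, adjusted p = 0.000228). Miip (chromosome 4, 147234887 to 147242828), Fbxo44 (chromosome 4, 147526909 to 147534173; -1.23 ± 0.15, adjusted p = 0.00184), Zfp933 (chromosome 4, 147197095 to 147222484; -1.54 ± 0.23, adjusted p = 0.00359) and Tcea3 were also lower and are on the same chromosome, on which neither targeted gene lies. Next to the targeted genes, 6 of 41 tested genes within 500 kb of Psmb8 and 4 of 24 within 500 kb of Psmb10 were called lower and 0 and 0 higher. Without replicate 4 the lower counts were 18 and 14. After median-of-ratios scaling they were 2 and 2. Near Psmb8 the count was 3 without WT replicate 1, and near Psmb10 it was 1 without any 1 WT library and 2 without dKO replicate 1 or 3. Over all genes, 13.1% were called lower with 8 libraries, 31.1% without replicate 4 and 6.95% after scaling.

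Some of the 6 h differences were there before LPS and some were not. Of the genes higher at 6 h, 106 were also higher at 0 h (20.5% of the 6 h genes and 67.1% of the 0 h genes), and of those lower, 297 were lower at both (23.6% and 42.0%). Without the library that stood apart at each time, 388 were higher at both (29.1% and 54.3%) and 1136 lower at both (38.1% and 57.8%). The libraries of the 2 times are separate. Gdpd3 differed by 3.87 at 0 h and 4.99 at 6 h (interaction 1.12, adjusted p = 0.0195), and Rpl3, Orm2 and Apobec3 by -4.71, 3.02 and -2.22 at 0 h. Ctsl measured 132, 120.5, 109 and 114 RPKM in WT and 230.4, 233, 214 and 261 RPKM in dKO at 0 h, a difference of 0.98 that was wider at 6 h (interaction 1.07, adjusted p = 0.012). All 4 dKO values at 6 h were above those at 0 h. Cd1d1 measured 29.5, 27, 27.3 and 28.4 RPKM in WT and 32.6, 22.8, 30.8 and 35.5 RPKM in dKO at 0 h with overlapping groups, and its difference was more negative at 6 h (interaction -1.42, adjusted p = 0.00558). Pik3cd (interaction -1.21, adjusted p = 0.00626), Miip (interaction -1.57, adjusted p = 0.015), Extl1 (interaction -1.31, adjusted p = 0.00302) and Ccl1 (interaction -2.33, adjusted p = 0.0108) also had a more negative difference at 6 h. With each of the 16 libraries left out in turn, a check chosen after seeing the data, these interactions kept their calls, except that of Gdpd3 without WT 0 h replicate 3 or 4 (adjusted p = 0.0521 to 0.057).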

How the data were processed

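RNA was extracted with Trizol and sequenced from TruSeq RNA v2 libraries made with 4 µg of RNA, per the labels' protocols. The authors deposited 1 table a library with an RPKM value and a whole number a gene, which reads as bases of coverage and served here for depth alone. CASAVA 1.8.2 and mm9 are named in the submitters' processing notes, and annotation, strand and shared-read handling are not given in the sources used here. Of 22308 entries, 92 were spike-ins and left out. Genes that reached 1 RPKM in 4 or more of these libraries entered limma 3.58.1 (R 4.3.3) on log2(RPKM + 0.5) with an intensity trend and Benjamini-Hochberg adjustment over 9589 genes, and a call needs an adjusted p below 0.05. A fold on this scale understates low genes. Depth in reads is unknown, so no counting interval is given. Genes named were the catalytic subunits, the 15 highest and 15 lowest called in both fits with groups apart and a higher mean of at least 5 RPKM (uncharacterised loci passed over), up to 5 of each list by adjusted p, and genes a sentence turns on by role or by a call that differs without dKO replicate 4. Some genes that the rule names are not reported here. Members and lists were chosen with earlier results of these data known. Median-of-ratios and quantile scaling, pseudocounts of 0.1 and 1, filters, array weights, a replicate block and each library left out were alternatives. Promoters are RefSeq windows of GRCm38.p6, matched for 7718 of 9589 genes.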

Additional observations from a re-analysis of the deposited data

Results flagged for a closer look

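One library held most of the named genes' values that stood apart from the rest of their own group of 4. In dKO replicate 4, 40 of 172 named genes stood apart by the 95% critical value of Dixon's gap criterion, and over all 9589 genes it was 1788 (18.65%), against 29 to 170 genes (0.3% to 1.77%) in each of the other 7 libraries. Chance alone puts about 1 in 20 groups past this criterion.

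Named genes whose level in dKO replicate 4 stood apart above the other 3 dKO libraries were, in RPKM, Ptx3 (1614), Emp1 (24.6), Hebp1 (41), Apoe (518), Cd14 (1113), Nfkb1 (277), Tnfaip3 (417), Tnf (2830.0), Ifnb1 (551), Nlrp3 (90.7), Ccr2 (27.3), Bcl2l1 (126), Itgax (354), Cldn1 (3.69), Csf1r (171), Abca1 (24.4), Thbs1 (1281) and Plau (28.7). Among them Tnf and Ifnb1 are early products of LPS signalling, and Csf1r, Cd14 and Itgax are surface proteins of myeloid cells. Those that stood apart below the other 3 dKO libraries were, in RPKM, Psmb9 (103), Psme1 (122), Serpinb9b (4.46), Apobec3 (4.35), Myd88 (84.1), Ebi3 (97.3), Ccl22 (3494), Ccl5 (4204), Irf8 (146), Irf7 (99.9), Ifit2 (532), Ifit3 (64.9), Gbp7 (68.6), Gbp2 (178), Iigp1 (3.41), Ifi47 (211), Cd40 (105), Fscn1 (303), H2-T10 (16.8), Tap1 (120.3), Nos2 (52.7) and Hdac1 (6.49). The criterion sets the gap against the range of the group, so a modest difference passes where the other 3 lie close together. Myd88, at 100.9 to 101.1 RPKM in those 3, is such a case. The genes that stood apart below include the interferon-stimulated genes Ifit3, Gbp2 and Iigp1 and the maturation genes Fscn1, Ccl22 and Cd40. The part that the time of LPS had in these values was not tested. Outside that library the values that stood apart in their group were, in RPKM, Cd207 in WT replicate 1 (2.57, lowest), Miip in dKO replicate 1 (4.77, highest), Ly96 in WT replicate 4 (15, lowest), Mefv in WT replicate 3 (9.83, highest), Gla in WT replicate 4 (8.82, lowest) and Mcm3 in WT replicate 1 (11.8, highest).

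The genotype difference itself was tested between the times. It was more positive at 6 h than at 0 h in 72 genes (0.751%) and more negative in 57 (0.594%), with the interaction of genotype and time in limma over all 16 libraries of both times. Those libraries include dKO 0 h replicate 2 and dKO 6 h replicate 4, which stood apart from their groups. Without both, the counts were 997 (10.4%) and 1108 (11.6%).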

How the results depend on the processing

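With 1 library left out, genes called higher ran over 246 to 1334 and lower over 503 to 2981 (highest without dKO replicate 4), and at least 2-fold higher over 99 to 194. Array weights, which gave dKO replicate 4 a weight of 0.0481, called 1327 higher and 3045 lower. Quantile normalization called 778 and 781, median-of-ratios scaling 666 lower, and scaling without replicate 4 called 1976 higher and 1853 lower. Genes at least 2-fold lower numbered 165 with RPKM of at least 5 (fewer genes tested), 183 with median-of-ratios scaling, 178 with quantile normalization and 166 with scaling and no replicate 4. The cause of the other shifts was not tested. The replicate number was shared by WT and dKO libraries, and same-numbered deviations correlated at -0.0906 to 0.0972. With dKO replicate 4 left out they correlated at 0.0284 to 0.0987, and differently numbered ones at -0.1681 to 0.156. Deviations from means of so few libraries cannot decide whether the numbers mark pairs. With the replicate block 261 genes were called higher and 567 lower, and 1198 and 2609 without replicate 4. The interaction counts were 997 and 1108 without both outlying libraries, and with 1 library left out, an alternative chosen after seeing the data, 36 to 358 and 22 to 261. Of 172 named genes, 131 were called with 8 libraries, and 82 of these kept the call under each of the 20 alternatives that tested them. Some low genes were not tested with RPKM of at least 5. For 8 named genes the sign changed under some alternative, with a call in the 8-library fit or in that alternative. Sign changes without a call were not counted. Scaling without replicate 4 gave 0.29 for Ccl5, 0.27 for Irf7, 0.22 for H2-K1, 0.37 for Ifit3, 0.47 for Gbp2, 0.99 for Iigp1 and 0.89 for Nos2. Array weights gave 0.33 for Gbp2, 0.76 for Iigp1, -0.21 for Itgax and 0.70 for Nos2. The block without replicate 4 gave 0.22 for Ifit3, 0.36 for Gbp2, 0.78 for Iigp1, -0.23 for Itgax and 0.61 for Nos2. With 1 library left out Ifit3 ran over -0.34 to 0.25, Gbp2 over -0.28 to 0.35, Iigp1 over -0.51 to 0.87, Itgax over -0.22 to 0.13 and Nos2 over -0.46 to 0.77. The files hold no read counts, so the sampling error of low values is unknown.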

Other observations

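Of 15 genes of inflammasomes and pyroptosis, 5 were called higher and 0 lower in dKO, and 7 and 1 without dKO replicate 4, against 5.4% and 13.1% and then 13.9% and 31.1% of all genes. With 1 other library left out, the higher count was 1 (WT replicate 1), 2 (WT replicate 2 or 4) or 3 (WT replicate 3 or dKO replicate 1 or 2). Nod2, which senses bacterial muramyl dipeptide, measured 12, 11, 12.3 and 9.98 RPKM in WT and 18.7, 19, 16.4 and 22.4 RPKM in dKO (0.73 ± 0.12, adjusted p = 0.00547), and the groups did not overlap. Aim2, a sensor of cytosolic DNA (31.6 to 39.1 RPKM in WT, 46.8 to 56.2 RPKM in dKO; 0.48 ± 0.10, adjusted p = 0.014), Mefv, which encodes pyrin (6.26 to 9.83 RPKM in WT, 11.3 to 20.01 RPKM in dKO; 0.94 ± 0.21, adjusted p = 0.0185), and Nlrp3 (36.5 to 41.4 RPKM in WT, 50.4 to 90.7 RPKM in dKO; 0.64 ± 0.18, adjusted p = 0.0391) were higher as well. Aim2 was not called without WT replicate 1 (adjusted p = 0.0544). Mefv was not called without WT replicate 1, 2 or 4 (adjusted p = 0.0562 to 0.0647). Nlrp3 was not called without WT replicate 1, 2, 3 or 4 or dKO replicate 1 or 2 (adjusted p = 0.0605 to 0.109). Of 12 complement genes, 3 were called higher and 2 lower in dKO, and 5 and 5 without dKO replicate 4. When another library was dropped, the higher count was 1 (WT replicate 1) and the lower count was 1 (WT replicate 1 or 3). C3, the central component, measured 335, 374, 433 and 269 RPKM in WT and 707, 642, 805 and 485 RPKM in dKO (0.90 ± 0.19, adjusted p = 0.0143), and C1ra, a protease of the classical pathway, was higher (4.73 to 6.16 RPKM in WT, 7.9 to 10.1 RPKM in dKO; 0.69 ± 0.12, adjusted p = 0.00623), whereas Cd55, which protects host cells from complement, was lower (1.34 to 1.96 RPKM in WT, 0.543 to 0.764 RPKM in dKO; -0.82 ± 0.14, adjusted p = 0.007). Cd55 passed the filter through its WT libraries alone. C3 was not called without WT replicate 1 (adjusted p = 0.0526).

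Of 79 cytosolic ribosomal protein genes, 0 were called higher and 8 lower in dKO, and 2 and 12 without dKO replicate 4. For other single libraries left out, the lower count was 5 (WT replicate 1 or 4). The counts were 2 higher and 6 lower after median-of-ratios scaling, 10 and 8 after scaling without dKO replicate 4, and 1 and 7 after quantile normalization. Rpl34 (11.8 to 18.1 RPKM in WT, 5.34 to 7.65 RPKM in dKO; -1.12 ± 0.16, adjusted p = 0.00329) came next after Rpl3 and Rpl29, and all carry the same doubt about reads from near-identical copies. Of 35 genes of the respiratory chain and ATP synthase, 0 were called higher and 1 lower in dKO, and 0 and 20 without dKO replicate 4. The counts were 0 higher and 1 lower after median-of-ratios scaling, 2 and 6 after scaling without dKO replicate 4, and 0 and 1 after quantile normalization. A pair of genes chosen after their values were seen had dKO replicate 4 at or above WT and the other 3 dKO libraries far below. Ccr2, the receptor that brings monocytes to tissue, measured 9.22, 19.3, 6.995 and 23.1 RPKM in WT and 1.97, 2.28, 1.48 and 27.3 RPKM in dKO and was called only without replicate 4 (-1.62 ± 0.81, adjusted p = 0.189 with 8 libraries, -2.51 ± 0.34, adjusted p = 0.000284 without it). Bcl2l1, which encodes the survival protein BCL-XL, measured 119, 127, 117 and 128 RPKM in WT and 55.6, 55.2, 48 and 126 RPKM in dKO (-0.90 ± 0.27, adjusted p = 0.0507 with 8 libraries, -1.21 ± 0.07, adjusted p = 1.5e-06 without it).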
